A study of Homo sapiens with 9 samples.

Results

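Decitabine enters cells through nucleoside transporters, has to be phosphorylated before it can be built into DNA, and is inactivated by deamination. The expression of 10 genes of this route was examined in PC-3 cells after exposure to the drug. The genes were chosen by symbol for what their products are known to do: SLC29A1 and SLC29A2 for uptake, DCK and CMPK1 for activation, CDA, DCTD and NT5C2 for breakdown, and RRM1, RRM2 and RRM2B for the supply of deoxynucleotides. Earlier results of these data were known when the genes were chosen. All 10 were found among the 60617 genes counted, and all 10 were abundant enough to be tested.

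As background, decitabine is a deoxycytidine analogue, and the cell handles it with the enzymes of deoxycytidine. Equilibrative transporters carry it across the membrane, deoxycytidine kinase adds the first and rate-limiting phosphate, and a cytidylate kinase adds the next. After incorporation into DNA the drug traps DNA methyltransferases, so that methylation is lost as cells divide. Cytidine deaminase removes the amino group of the free drug, deoxycytidylate deaminase acts on the monophosphate, and nucleotidases can take the phosphate off again. Ribonucleotide reductase makes the natural deoxynucleotides, which compete with the drug for incorporation. A high ratio of cytidine deaminase to deoxycytidine kinase is a textbook feature of cells that respond poorly to decitabine.

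PC-3 is a long-established cell line derived from a bone metastasis of human prostate cancer, and it lacks functional p53. The RNA of 3 control, 3 decitabine and 3 combination treatment libraries was sequenced. Control cells received vehicle, decitabine cells received 1 µM decitabine, and combination treatment cells received 1 µM decitabine together with 200 µM S-adenosylmethionine (SAM), the methyl donor of DNA methyltransferases. The labels give 5 days from the start of treatment, and all groups come from the same line in the same medium. The labels do not say whether the 3 replicates of a group were separate cultures, so p-values measure the spread between these libraries, which may be technical. Cells given SAM alone were not analysed here.

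Each library held between 21934307 and 22489684 estimated counts. Expression is given as CPM, counts per fixed library total, with scaling by the trimmed mean of M values (TMM), and fold changes and adjusted p-values come from edgeR's quasi-likelihood test over 18532 genes. The line's markers were checked first. KRT8, KRT18, CD44, VIM and EPCAM were detected in all libraries, and KLK3, a prostate marker that this line is known to lack, had no count. Of 7 leukocyte, endothelial and fibroblast markers, 4 were tested and 3 were higher in both treated groups (PECAM1, PTPRC and DCN). Over all genes, 36.3% were higher with decitabine and 35.9% with the combination treatment. PTPRC and DCN had at most 2 counts in a control library. They could be tested only through the treated libraries, so their calls are no support for a change of the list. The summed level of the 7 markers was 10.5 to 11.2 CPM in control, 32.9 to 43.6 CPM in decitabine and 39.2 to 45.8 CPM in combination treatment libraries. Most of it came from PECAM1 at 9.78 to 43.1 CPM, and the other 6 stayed at or below 1.62 CPM, with CD3E at 0 in the controls. The part of other cells in the results was not tested, and in bulk RNA fewer cells of a type and less RNA per cell cannot be told apart. Combination treatment replicate 3 stood apart from its group: on the second principal component it had −7.51, against −42.19 and −35.66 in the other combination treatment libraries and 22.78 to 28.62 with decitabine. Each result that turns on this library is given without it as well.

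The promoters of the members differ in CpG content, and 4 of them are shown so that CDA, which rose, can be set beside members that fell. RefSeq promoter windows of 300 bases in assembly GRCh38.p14 were matched for 8 of the 10 members, with 13 windows in all. The stretches below run 5′ to 3′ on the strand of the gene, stop before the next exon that GENCODE 44 annotates for the gene, and have each CG in capitals. The DCK stretch lies downstream of the annotated start of the gene, between exons of transcripts that begin further upstream. CDA lies on the plus strand (chr1:20588847-20589085), as do DCK (chr4:70993399-70993562), SLC29A1 (chr6:44219365-44219552) and RRM1 (chr11:4094435-4094684).
CDA: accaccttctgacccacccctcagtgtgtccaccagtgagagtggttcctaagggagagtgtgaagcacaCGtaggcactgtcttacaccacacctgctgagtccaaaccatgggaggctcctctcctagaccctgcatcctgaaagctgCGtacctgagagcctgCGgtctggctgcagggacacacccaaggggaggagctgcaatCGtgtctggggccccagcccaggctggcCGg
DCK: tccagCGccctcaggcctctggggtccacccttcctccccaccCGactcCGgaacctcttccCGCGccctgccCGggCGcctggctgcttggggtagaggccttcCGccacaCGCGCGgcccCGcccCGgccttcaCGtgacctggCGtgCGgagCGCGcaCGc
SLC29A1: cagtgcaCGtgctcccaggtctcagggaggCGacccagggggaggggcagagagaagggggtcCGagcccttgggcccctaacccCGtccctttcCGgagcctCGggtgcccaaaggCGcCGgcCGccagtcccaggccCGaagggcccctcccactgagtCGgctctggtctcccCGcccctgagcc
RRM1: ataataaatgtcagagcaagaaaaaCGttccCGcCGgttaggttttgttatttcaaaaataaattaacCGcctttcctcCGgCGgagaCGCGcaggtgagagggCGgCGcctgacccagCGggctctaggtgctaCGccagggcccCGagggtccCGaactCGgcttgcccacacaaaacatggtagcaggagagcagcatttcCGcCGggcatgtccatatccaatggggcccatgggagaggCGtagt
The CDA stretch held 5 CG in 239 bases, or 2.09 per 100 bases. The DCK stretch held 19 CG in 164 bases, or 11.6 per 100. SLC29A1 had 6.38 and RRM1 had 7.2 per 100 bases.

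The full windows reach 50 bases past the RefSeq start, which need not be the GENCODE start. Over them, CDA had 8 CG against a median of 14 over 35116 windows, and 41.6% of all windows had as many or fewer. The DCK window had 37 CG, which put it above or level with 90.1% of windows, and a DCTD window had 47 and stood at 98.0%. CMPK1 had 25, RRM1 had 21, and the pairs of windows of SLC29A1 and RRM2 had 27 and 34, and 41 and 31. NT5C2 had windows with 3, 0 and 41 CG. E2F-type letters (TTTCCCGC, TTTCGCGC, TTTGCCGC or TTTGGCGC, on either strand), which occur in 3.31% of windows, were found once each in the windows of DCK and CDA. The letters CCAAT, in 34.6% of windows on either strand, occurred once in RRM1 and 1 and 3 times in the overlapping windows of RRM2. GGGCGG, in 45.0% of windows on either strand, occurred 3 times in the DCK window and in both windows of SLC29A1, and was not found in CDA or CMPK1. GAAANNGAA, in 8.11% of windows on either strand, occurred in 1 window of NT5C2. These matches describe the letters only.

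**Figure D1:**
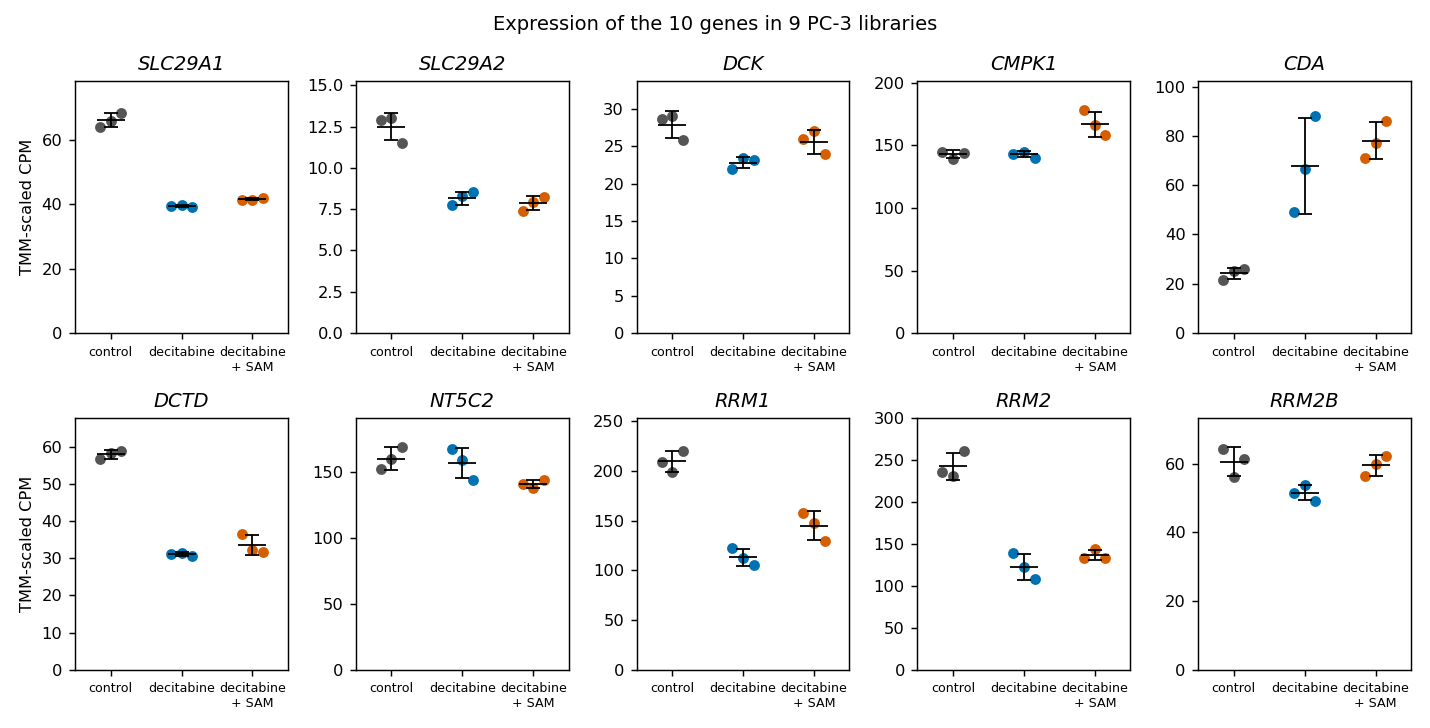
Expression of each of the 10 genes in TMM-scaled CPM (vertical axes, starting at 0) in 9 PC-3 libraries, 1 point per library, with a horizontal line for the group mean and bars of 1 SD (n = 3). CDA is the gene whose treated libraries all lie well above the controls, and SLC29A1, SLC29A2, DCTD, RRM1 and RRM2 lie below the controls in all 6 treated libraries.

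With decitabine, 7 of the 10 genes fell and 1 rose. Of all genes tested, 32.5% were lower and 36.3% were higher in this comparison. With the combination treatment 6 fell and 2 rose against control, where 31.3% of all genes were lower and 35.9% were higher. The median log2 fold change of the 10 genes was −0.45 with decitabine and −0.36 with the combination treatment, beside medians over all genes of 0.035 and 0.048. Both comparisons use the same 3 controls. Between the treatments, 2 of the 10 genes were higher with the combination and 0 were lower, where 7.67% of all genes were higher and 8.02% lower. These directions depend in part on scaling. With library size as the only scaling, the all-gene medians moved to 0.281 and 0.268, so the log2 values below should be read relative to such a shift where they are small.

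The equilibrative transporters fell. SLC29A1 (ENSG00000112759; chromosome 6, 44219553 to 44234142, plus strand, GENCODE 44 on GRCh38) encodes ENT1, the main route of nucleoside drugs into most cells. It stood at 64.2, 65.9 and 68.5 CPM in the controls, at 39.4, 39.7 and 39.1 CPM with decitabine, and at 41.4, 41.4 and 41.9 CPM with the combination treatment. No treated library overlapped with a control, and the replicates of a group differed little. Decitabine libraries were 1.68-fold lower than controls (log2 −0.75 ± 0.07, SE, adjusted p = 2.2e-07), and combination treatment libraries were 1.59-fold lower (−0.67 ± 0.07, adjusted p = 6.7e-07). Between the treatments the difference was 0.08 on the log2 scale with a 95% interval of −0.07 to 0.22.

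SLC29A2 (ENSG00000174669; chromosome 11, 66362521 to 66372214, minus strand) encodes ENT2, a second equilibrative transporter with broader substrates. It was counted at 12.9, 13 and 11.5 CPM in the controls, 7.74, 8.27 and 8.51 CPM with decitabine, and 7.4, 7.96 and 8.26 CPM with the combination treatment. Here too the controls lay above all treated libraries. The log2 fold change was −0.61 ± 0.11 (adjusted p = 0.00022) and −0.66 ± 0.11 (adjusted p = 0.00011), and the treatments differed by −0.05 with an interval of −0.30 to 0.19. The log2 ratio of SLC29A1 to SLC29A2 per kilobase averaged 1.75 in control, 1.61 in decitabine and 1.74 in combination treatment libraries, with overlapping ranges. Its exons share 279 bases with the non-coding gene B4GAT1-DT on the other strand, which had 8.7 to 27.0 counts per library.

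The activating kinases moved little. DCK (ENSG00000156136; chromosome 4, 70992538 to 71030914, plus strand), the deoxycytidine kinase, stood at 28.7, 29.1 and 25.8 CPM in the controls and at 21.9, 23.4 and 23.2 CPM with decitabine. It stood at 26.0, 27.0 and 23.9 CPM with the combination treatment. All decitabine libraries lay below the controls, whereas the combination treatment overlapped with them. The log2 change of DCK under decitabine was −0.29 ± 0.09 (adjusted p = 0.0079). This call was lost with library size as the only scaling, where the change was −0.04 (adjusted p = 0.68). With the combination treatment the change was −0.12 with an interval of −0.30 to 0.06 (adjusted p = 0.22), and with library size alone it turned to 0.10. The difference between the treatments was 0.17 with an interval of −0.01 to 0.35 (adjusted p = 0.20). DCK shares 199 exon bases with MOB1B on the same strand, a gene of similar count (509.1 to 792.2 per library, DCK 519 to 614), so reads in that stretch could have been assigned to either.

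CMPK1 (ENSG00000162368; chromosome 1, 47333790 to 47394866, plus strand) encodes the cytidylate kinase that adds the next phosphate. It was among the most abundant members, with 145, 139 and 144 CPM in the controls and 143, 145 and 140 CPM with decitabine. With the combination treatment it reached 178, 166 and 158 CPM, above every other library. Decitabine alone gave a log2 difference of 0.00 with an interval of −0.14 to 0.14 (adjusted p = 0.98), which became 0.24 (adjusted p = 0.003) with library size as the only scaling. The combination treatment raised CMPK1 by 0.23 ± 0.07 against control (adjusted p = 0.007) and by 0.23 ± 0.07 against decitabine (adjusted p = 0.031). The call against decitabine was narrow. It was lost without control replicate 2 (0.23, adjusted p = 0.052), decitabine replicate 1 (0.23, 0.07), 2 (0.24, 0.097) or 3 (0.22, 0.059), or combination treatment replicate 1 (0.18, 0.12) or 2 (0.24, 0.10). Without combination treatment replicate 3 it held at 0.27 (adjusted p = 0.012).

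CDA was the member that rose in both treated groups. CDA (ENSG00000158825; chromosome 1, 20589086 to 20618903, plus strand) encodes cytidine deaminase, which converts decitabine into an inactive uridine analogue. It was counted at 21.6, 25 and 26.1 CPM in the controls, at 49.1, 66.6 and 88.0 CPM with decitabine, and at 71.2, 77.0 and 86.0 CPM with the combination treatment. The lowest treated library thus lay clearly above the highest control, while the decitabine libraries spread widely among themselves. Against the controls CDA was 2.8-fold higher under decitabine (log2 1.49 ± 0.19, adjusted p = 0.00011) and 3.22-fold higher when SAM was added (1.69 ± 0.19, adjusted p = 4.9e-05). Leaving out any 1 library kept the decitabine value between 1.25 and 1.67, and CDA remained higher in each case. The treatments differed by 0.20 with an interval of −0.21 to 0.62 (adjusted p = 0.50). Without decitabine replicate 3, the library with the highest CDA level, this difference was 0.43 and passed the threshold (adjusted p = 0.04).

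The other deaminase moved the opposite way. DCTD (ENSG00000129187; chromosome 4, 182890060 to 182917936, minus strand) encodes deoxycytidylate deaminase, which turns dCMP into dUMP and also acts on decitabine monophosphate. It stood at 56.7, 58.4 and 58.9 CPM in the controls, 31.2, 31.4 and 30.5 CPM with decitabine, and 36.6, 32.2 and 31.7 CPM with the combination treatment. The groups of treated libraries lay far below the controls and close together. The log2 change of DCTD was −0.90 ± 0.08 under decitabine (adjusted p = 1.4e-07), a 1.87-fold fall, and −0.79 ± 0.08 when SAM was added (adjusted p = 5.1e-07). Between the treatments the difference was 0.11 with an interval of −0.06 to 0.27.

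NT5C2 (ENSG00000076685; chromosome 10, 103087185 to 103277605, minus strand) encodes a cytosolic nucleotidase known for inactivating some nucleoside drugs. It was counted at 152, 160 and 169 CPM in the controls, 167, 159 and 144 CPM with decitabine, and 141, 138 and 144 CPM with the combination treatment. Decitabine overlapped with the controls, and the combination treatment lay just below them. The log2 difference was −0.03 with an interval of −0.19 to 0.12 for decitabine (adjusted p = 0.70), which turned to 0.21 (adjusted p = 0.016) with library size alone and to 0.02 without decitabine replicate 3. For the combination treatment it was −0.19 ± 0.07 (adjusted p = 0.035). This call was lost with library size alone (0.04, adjusted p = 0.67), without control replicate 2 (−0.19, 0.069) or 3 (−0.15, 0.11), and without combination treatment replicate 2 (−0.17, 0.10). NT5C2 shares 2724 exon bases with CNNM2 and 452 with INA, both on the opposite strand. CNNM2 had 263 to 560 counts per library and INA 0 to 441, and whether the counting used strand is not given in the sources used here.

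The subunits of the S-phase ribonucleotide reductase fell, and RRM2 had the largest fall of the 10 genes in both comparisons with control. RRM1 (ENSG00000167325; chromosome 11, 4094707 to 4138932, plus strand) encodes the large catalytic subunit. It stood at 209, 199 and 220 CPM in the controls, 122, 112 and 105 CPM with decitabine, and 158, 148 and 130 CPM with the combination treatment. The groups did not overlap, and the combination treatment lay between the other two. The log2 change of RRM1 was −0.89 ± 0.08 under decitabine (adjusted p = 4.6e-07), and a smaller −0.53 ± 0.08 when SAM was added (adjusted p = 6.7e-05). The treatments differed by 0.36 ± 0.08, the combination being higher (interval 0.18 to 0.54, adjusted p = 0.013). Without combination treatment replicate 3 this difference was 0.43 (adjusted p = 0.0017). It missed the threshold without decitabine replicate 2 (0.35, adjusted p = 0.062), or without combination treatment replicate 1 (0.29, 0.057) or 2 (0.35, 0.063).

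RRM2 (ENSG00000171848; chromosome 2, 10120698 to 10211725, plus strand) encodes the small subunit that cells make during S phase. It was counted at 236, 231 and 261 CPM in the controls, 139, 123 and 108 CPM with decitabine, and 133, 144 and 134 CPM with the combination treatment. All treated libraries lay below the controls, and the treatments overlapped. RRM2 was 1.97-fold lower under decitabine (log2 −0.98 ± 0.09, adjusted p = 2.8e-07) and 1.77-fold lower when SAM was added (−0.83 ± 0.09, adjusted p = 1.6e-06). Between the treatments the difference was 0.15 with an interval of −0.04 to 0.34 (adjusted p = 0.26). The annotated pseudogenes RRM2P2, RRM2P3 and RRM2P4 had at most 2, 12 and 0 counts in any library.

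RRM2B (ENSG00000048392; chromosome 8, 102204502 to 102238961, minus strand) encodes the alternative small subunit, which p53 can induce and which serves DNA repair and mitochondrial DNA outside S phase. It stood at 64.4, 56.1 and 61.4 CPM in the controls, 51.6, 53.7 and 49.3 CPM with decitabine, and 56.4, 60.0 and 62.4 CPM with the combination treatment. Only the decitabine libraries lay below all controls. The change was −0.23 ± 0.08 with decitabine (adjusted p = 0.014), and 0.01 (adjusted p = 0.90) with library size as the only scaling. Without control replicate 1 it was −0.20 and no longer passed (adjusted p = 0.05 after rounding). With the combination treatment the change was −0.02 with an interval of −0.19 to 0.14 (adjusted p = 0.79), which turned to 0.20 (adjusted p = 0.036) with library size alone. Between the treatments the difference was 0.21 with an interval of 0.05 to 0.37, which missed the threshold after adjustment (adjusted p = 0.076).

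**Figure D2:**
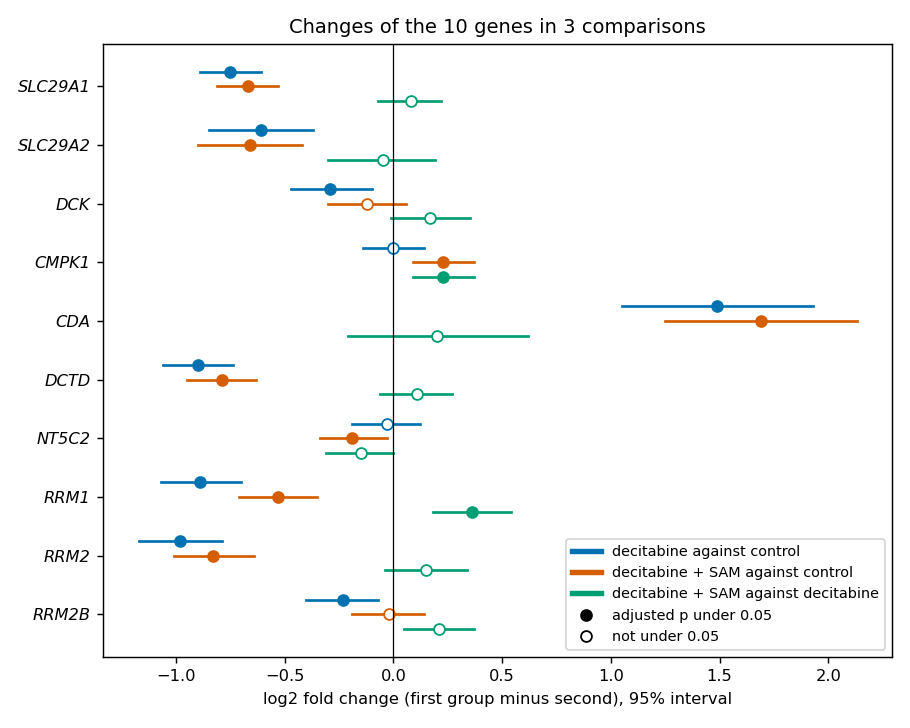
Log2 fold changes of the 10 genes (horizontal axis) with 95% intervals for decitabine against control, decitabine with SAM against control and decitabine with SAM against decitabine, from edgeR over 9 libraries. Filled points passed an adjusted p of 0.05. CDA stands at 1.49 and 1.69 to the right, and the values between the treatments lie from −0.15 to 0.36.

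Between the treatments, the calls were therefore RRM1 and CMPK1, both higher with SAM. The other 8 genes gave intervals that all lay within −0.31 and 0.62. With 3 libraries per group, a missed threshold does not show that a gene stayed the same, and the interval gives the range of differences these data allow.

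Ratios within a library do not depend on scaling between libraries. Their level depends on the gene lengths used, and their differences between groups do not. The log2 ratio of DCK to CDA, each per kilobase of exon, was −1.51, −1.70 and −1.94 in the controls. It was −3.08, −3.43 and −3.85 with decitabine and −3.37, −3.43 and −3.77 with the combination treatment. Every treated library thus had a lower ratio than every control. The mean difference was −1.74 with decitabine (3.33-fold lower) and −1.81 with the combination treatment (3.5-fold lower). An exact two-sided permutation test of 3 against 3 libraries gave p = 0.1 for each, the smallest it allows, and 0.25 after adjustment over 15 ratio tests. The treatments differed by −0.07 (exact permutation p = 0.9), with a sign that turned without decitabine replicate 1 (0.11) or combination treatment replicate 3 (0.05).

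The ratio of RRM2 to RRM2B compares the S-phase with the alternative small subunit. On the log2 scale per kilobase it was 1.11, 1.28 and 1.33 in the controls, 0.66, 0.43 and 0.36 with decitabine, and 0.47, 0.50 and 0.34 with the combination treatment. The treated libraries did not overlap with the controls, with mean differences of −0.75 and −0.80 (exact permutation p = 0.1 each). RRM2 to RRM1 was −0.93, −0.90 and −0.87 in the controls and −0.93, −0.98 and −1.08 with decitabine, which overlap. It was −1.36, −1.15 and −1.07 with the combination treatment, below all controls (difference −0.29, exact permutation p = 0.1). DCK to NT5C2 differed by −0.25 with decitabine (exact permutation p = 0.2) and by 0.06 with the combination treatment (p = 0.6). Between the treatments it differed by 0.32 without overlap (exact permutation p = 0.1). None of the 15 ratio tests can pass 0.05 with 3 libraries a group.

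**Figure D3:**
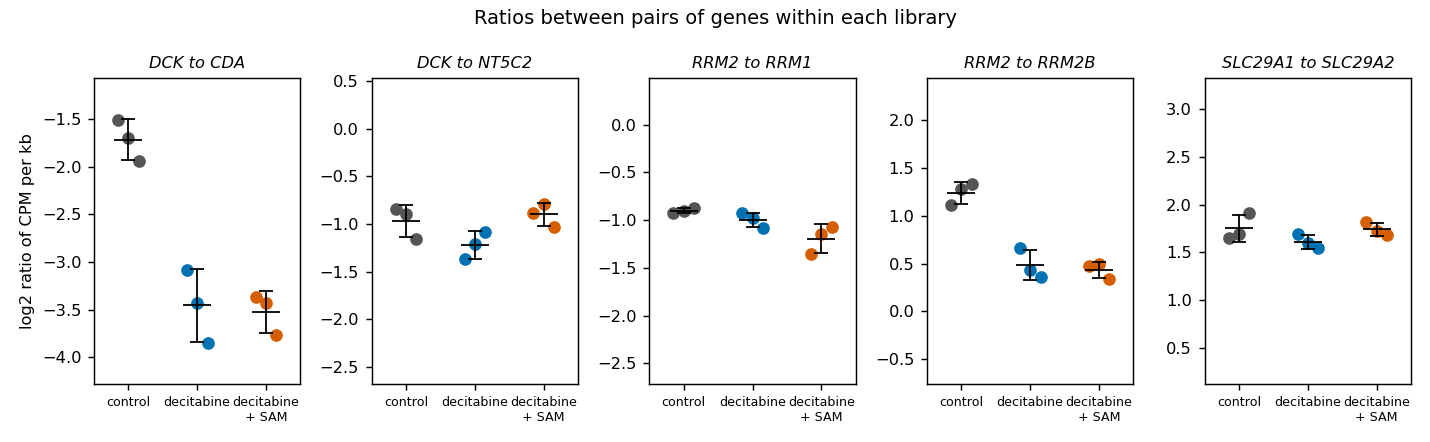
Log2 ratios of CPM per kilobase between pairs of the genes (vertical axes, each spanning the same range of log2 units) in 9 libraries, 1 point per library, with the group mean and 1 SD (n = 3). DCK to CDA lies between −1.94 and −1.51 in the controls and between −3.85 and −3.08 in the 6 treated libraries.

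The order of the levels changed with treatment. Per kilobase of the union of annotated exons, RRM1 led in the controls with 49.5 ± 2.5 CPM per kb (SD, n = 3), followed by CMPK1 at 32.2 ± 0.757, CDA at 29.5 ± 2.84 and RRM2 at 26.5 ± 1.74. The ranges of CMPK1 and CDA overlapped, as did those of CDA and RRM2. NT5C2 (17.6), DCTD (17.3), SLC29A1 (15.4), RRM2B (11.2), DCK (8.98) and SLC29A2 (4.58) followed, and of these neighbours only NT5C2 and DCTD overlapped. With decitabine CDA came first at 82.8 ± 23.8 CPM per kb, ahead of CMPK1 at 32.2 and RRM1 at 26.8. With the combination treatment CDA stood at 95.2 ± 9.1, with CMPK1 at 37.7 and RRM1 at 34.3 overlapping behind it. DCK and SLC29A2 were the lowest in all 3 groups, at 7.36 and 3.0 CPM per kb with decitabine and 8.26 and 2.9 with the combination treatment. The middle ranks, and the first rank in the controls, depend on the length used. With the longest transcript, RRM1 at 66.2 and RRM2 at 66.1 CPM per kb overlapped in the controls. By the longest transcript CDA stood at 29.9 CPM per kb in the controls, below RRM2 at 66.1 and with a range that overlapped those of NT5C2 at 32.6, DCTD at 30.0 and SLC29A1 at 28.1, whereas it still led in both treated groups at 83.9 and 96.5.

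The members that fell resembled each other across libraries to different degrees. Pearson's r of log2 expression over the 9 libraries ran from 0.79 (SLC29A2 and RRM1) to 0.99 (SLC29A1 and DCTD) among SLC29A1, SLC29A2, DCTD, RRM1 and RRM2. DCK had r of 0.70 to 0.82 with these 5 genes, and RRM2B had r of 0.44 to 0.69 with them and 0.61 with DCK. CDA had r of −0.94 with RRM2 and −0.93 with SLC29A1 and DCTD. These libraries share their treatments, so the values describe the group differences more than any variation within groups. By the same measure over 17560 genes, the nearest gene to RRM1 was CCNB1, a mitotic cyclin (r = 0.9966), then FANCG of the Fanconi anaemia repair complex (0.996). The nearest to CDA were CDR2L (0.9967) and TRAF4 (0.9963). SLC29A1 was nearest to PABPC4 (0.9965) and NONO (0.9959), DCTD to SNRNP40 (0.9973) and THOP1 (0.9969), and RRM2 to ZNF37A (0.9945) and NUP205 (0.9934). SLC29A2 was nearest to NIBAN1 (0.9955) and SBF1 (0.9919), and DCK to ITGAE (0.983) and MRPL34 (0.9826). The values were lower for CMPK1 with WRNIP1 (0.9814) and C9orf78 (0.9722), for NT5C2 with NR3C2 (0.9722) and ATR (0.9628), and for RRM2B with PSMD5 (0.9576) and ZNF726 (0.9407).

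The rest of the pathway was counted beside the members. Of 10 other nucleoside transporters, 8 were tested, of which 4 rose and 1 fell with decitabine (median log2 fold change 0.51), and 5 rose and 0 fell with the combination treatment (median 0.98). Of all genes, 36.3% and 35.9% were higher in these comparisons. ABCG2, SLC28A2 and ABCC11 had at most 6, 3 and 5 counts in a control library, so they could be tested only through the treated libraries, and their calls are no support for a change of the list. ABCG2, an efflux pump, had 0 to 6 counts per control library and reached 6.96 to 7.62 CPM with decitabine and 7.7 to 9.8 CPM with the combination treatment. SLC28A2, a concentrative transporter, went from at most 0.149 CPM to 0.847 to 1.43 and 0.566 to 0.937 CPM, and ABCC11, an exporter, from at most 0.247 CPM to 0.717 to 0.932 and 0.392 to 0.852 CPM. The concentrative pyrimidine transporters SLC28A1 and SLC28A3 had at most 1 count in any library and were not tested. The combination treatment was higher than decitabine for SLC29A4 (log2 0.82, adjusted p = 0.039) and the nucleotide exporter ABCC4 (0.38, adjusted p = 0.0083), and no other gene of this list was called there. In that comparison 7.67% of all genes were higher.

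Of 13 other nucleoside and nucleotide kinases, all tested, 11 fell and 1 rose with decitabine (median −0.54), and 8 fell and 2 rose with the combination treatment (median −0.44). Over all genes, 32.5% and 31.3% were lower, and 36.3% and 35.9% higher. Small changes were not particular to DCK and CMPK1. With decitabine TK1 changed by −0.17 and NME3 by −0.02, and with the combination treatment TK1 rose by 0.23, as CMPK1 did. The thymidylate kinase DTYMK fell (log2 −1.22 and −0.84), as did the nucleoside diphosphate kinase NME4 (−1.15 and −0.59). The kinase that rose with decitabine was CMPK2, the mitochondrial, interferon-inducible relative of CMPK1. CMPK2 stood at 5.73 to 6.75 CPM in controls, 98.0 to 124 CPM with decitabine, and 13.1, 14.2 and 44.5 CPM with the combination treatment, the last in replicate 3. The treatments differed by −2.17 for CMPK2 (adjusted p = 0.029), or by −2.98 (adjusted p = 8.5e-10) without that library. In that comparison 5 kinases were higher, namely TK1 (0.41, adjusted p = 0.0024), NME4 (0.56, 0.003), DTYMK (0.38, 0.02), NME1 (0.35, 0.013) and NME2 (0.29, 0.04).

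Of 17 other breakdown enzymes, 13 were tested. With decitabine 6 rose and 6 fell (median 0.05), and with the combination treatment 5 rose and 5 fell (median −0.11). Over all genes, 36.3% were higher and 32.5% lower with decitabine, and 35.9% and 31.3% with the combination treatment. Thymidine phosphorylase TYMP rose (log2 3.46 and 2.36), and the nucleotidase NT5C fell (−1.59 and −1.89). NT5C1B, called higher in both, had only 0 to 2 counts per control library and 6 to 19 per treated library. SAMHD1, a triphosphohydrolase that also cleaves decitabine triphosphate, was counted at 95.1 to 102 CPM in controls and 242 to 277 CPM with decitabine. With the combination treatment SAMHD1 stood at 115, 110 and 172 CPM, with a log2 difference from decitabine of −0.96 (adjusted p = 0.0029), or −1.20 (adjusted p = 1e-07) without replicate 3. Also lower than with decitabine were NT5C3A (−1.02, adjusted p = 0.0025), TYMP (−1.10, 0.019), NT5E (−0.51, 0.0066) and DPYD (−0.41, 0.013), and higher were DUT (0.43, 0.015), NT5C3B (0.38, 0.0066) and DCTPP1 (0.36, 0.0072). Without replicate 3 the kinases called were still 5 higher and 1 lower, and the breakdown enzymes 3 higher and 5 lower. In that setting 2066 of 18939 genes tested were higher and 1997 lower. With all libraries, 7.67% of all genes were higher and 8.02% lower between the treatments. Among the breakdown members CDA, DCTD and NT5C2, none passed the threshold between the treatments.

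The genes of de novo pyrimidine synthesis fell as well. All 7 were called lower with decitabine (median −0.92) and 6 of 7 with the combination treatment (median −0.89). Over all genes, 32.5% and 31.3% were lower in these comparisons. The log2 changes were −1.22 and −1.38 for CAD, which starts the pathway, and −0.92 and −1.31 for CTPS1, a CTP synthase. Between the treatments the difference was −0.39 for CTPS1 (adjusted p = 0.0061). Without combination treatment replicate 3, the genes called higher with the combination were 3 instead of 1. Over all genes, 2066 of 18939 tested were then higher, against 1421 of 18532 with all libraries. With all libraries, 7.67% of all genes were higher and 8.02% lower in that comparison.

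**Figure D4:**
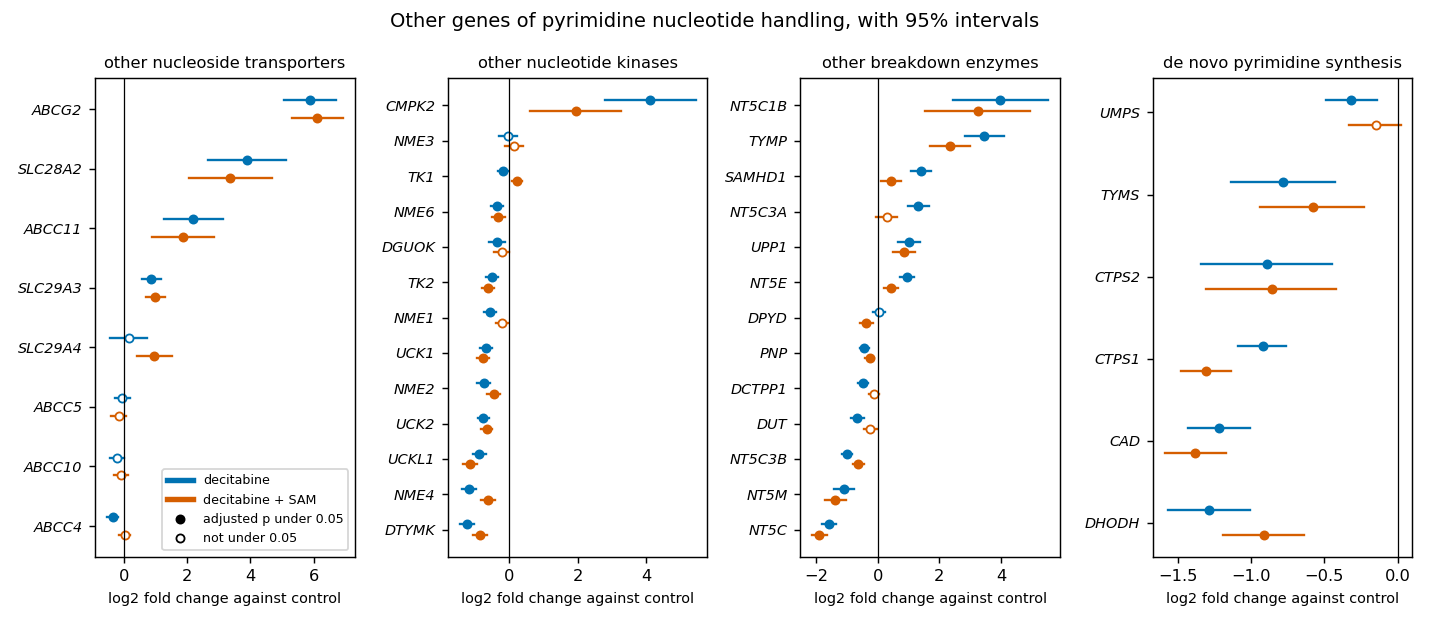
Log2 fold changes against control (horizontal axes, which differ in range between panels) with 95% intervals for genes of 4 lists of pyrimidine nucleotide handling, from edgeR over 9 libraries. Filled points passed an adjusted p of 0.05. All 6 synthesis genes shown lie left of 0, and ABCG2 lies farthest right among the transporters.

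RRM1 and RRM2 are made mainly in S phase, so cell cycle genes were counted as well. Of 33 S phase genes, 31 fell and 1 rose with decitabine (median −0.68), and 25 fell and 2 rose with the combination treatment (median −0.63). POLA1 (−0.95 and −1.33), GINS2 (−1.23 and −1.08) and POLE2 (−1.22 and −0.79) had the largest changes. RRM1 (−0.89) and RRM2 (−0.98) lay beyond the S phase median with decitabine. There GINS2 and POLE2 fell further than either, as did CDT1 (−1.14), LIG1 (−1.13), GINS4 (−1.09), RFC4 and RFC5 (−1.02 each), and MCM7 (−1.0). With the combination treatment RRM2 (−0.83) lay beyond the S phase median and RRM1 (−0.53) did not. Between the treatments 8 S phase genes were higher and 1 was lower with the combination (median 0.21), and without its replicate 3 the higher ones were 16. The calls over all genes rose too: without that library 2066 of 18939 genes tested were higher, against 1421 of 18532 with all libraries. All 10 mitosis genes fell with decitabine (median −0.83), and 7 fell with the combination treatment (median −0.45). Over all genes, 32.5% and 31.3% were lower in these comparisons, and 36.3% and 35.9% higher. PLK1, TOP2A and AURKB had the largest changes, at −1.69, −1.15 and −0.95 with decitabine. Of the mitosis genes 6 were higher with the combination than with decitabine (median 0.41), as RRM1 was (0.36). Between the treatments 7.67% of all genes were higher and 8.02% lower. The part of the cell cycle in the changes of the members was not tested.

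RRM2B is also known as a p53 target, and 19 genes of this kind were counted. With decitabine 6 rose and 9 fell (median −0.29, RRM2B −0.23), and with the combination treatment 7 rose and 9 fell (median −0.24, RRM2B −0.02). Over all genes, 36.3% were higher and 32.5% lower with decitabine, and 35.9% and 31.3% with the combination treatment. CDKN1A, a cell cycle inhibitor, rose (log2 2.55 and 2.32), PHLDA3 rose (2.18 and 2.56), and SESN2, a stress sensor, fell (−1.72 and −2.09). Between the treatments 2 were higher and 1 was lower, where 7.67% of all genes were higher and 8.02% lower.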

How the data were processed

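RNA was sequenced on the BGISEQ-500 per the labels. The authors trimmed reads with TrimGalore (version 0.6.4 in the submitters' processing notes), counted them with kallisto against GRCh38 and deposited estimated counts per Ensembl gene, not normalized, used here. The deposited log2 CPM values (9 columns) were not used. Estimated counts were rounded and fitted with edgeR 4.0.16 in R 4.3.3 (filterByExpr, TMM, robust quasi-likelihood test, all 9 libraries, 1 mean per group, no covariate), with Benjamini-Hochberg adjustment over 18532 genes at 0.05. Of 60617 genes, 60357 matched GENCODE 44. Groups and replicate numbers came from the labels, and doses from the study's methods. The test was tried on simulated data. No library was a copy of another of its own group by a chi-square test of replicate pairs (5.86 to 23.5 per degree of freedom). Libraries of different groups were not compared in this way.

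The members, lists and tests were chosen with earlier results of these data known. All 10 members were described. Of each list, the text names the 3 genes with the largest absolute log2 fold change against control among those called, and each transport, kinase, breakdown or synthesis gene called between the treatments. Other genes (KLK3, SLC28A1 and the like) were named after their values were seen. Likeness was Pearson's r of log2 (TMM CPM + 0.5) over genes averaging 10 counts or more. Ratios were tested by exact two-sided permutation of libraries in Python 3.11.15 with scipy 1.17.1. Alternatives for scaling were the size factors of DESeq2 and library size alone. The tools tried were DESeq2 1.42.0 and voom with limma 3.58.1. The others were no filter, a minimum mean count of 10, a fit of the 6 libraries in question, a replicate block, another gene length, and leaving out each library. For the lists, leaving out combination treatment replicate 3 and library size alone were added after seeing the data. Depth was 21934307 to 22489684 counts per library. A few genes of these lists are left out of the text and plots, but not of the counts.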

Additional observations from a re-analysis of the deposited data

How the results depend on the processing

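Of 510 alternative log2 fold changes of the 10 genes, 479 kept their direction and side of the threshold, 15 lost the call, 1 gained it and 15 changed sign. With library size as the only scaling, 3 genes instead of 1 were higher with decitabine, and over all genes 3746 instead of 6030 were lower with decitabine and 3857 instead of 5799 with the combination treatment. Higher calls then made up 70.3% instead of 52.7% with decitabine, 69.3% instead of 53.4% with the combination treatment, and 41.6% instead of 48.9% between the treatments. Sign changes under this scaling were CMPK1 0.24, NT5C2 0.21 and RRM2B 0.01 with decitabine, and DCK 0.10, NT5C2 0.04 and RRM2B 0.20 with the combination treatment. CMPK1 with decitabine also turned to 0.02 with DESeq2's size factors, DESeq2, a mean of at least 10 counts, or only the 6 libraries compared. With only those 6 libraries, 1 gene instead of 2 was higher between the treatments. The cause was not tested, except that scaling by library size alone moves all genes.

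Leaving out 1 library at a time gave 0 to 2 members higher between the treatments, and 381 to 2066 higher and 480 to 1997 lower among all genes (1421 and 1487 with all libraries). They moved by more than 1.5 times without combination treatment replicate 1 (591 higher and 773 lower) or 2 (381 and 480), or without decitabine replicate 1 (846 and 937) or 2 (408 and 596). Ranges that crossed 0 were −0.03 to 0.01 for CMPK1 and −0.09 to 0.02 for NT5C2 with decitabine, and −0.09 to 0.01 for RRM2B with the combination treatment. Among ratios, DCK to CDA (−0.27 to 0.11) and RRM2 to RRM2B (−0.11 to 0.04) crossed 0 between the treatments, and DCK to NT5C2 (−0.03 to 0.13) and SLC29A1 to SLC29A2 (−0.06 to 0.07) did so for the combination treatment against control.

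Deviations from the group means were correlated between replicates of the same number. With the controls r ran from −0.02 to 0.07. Between the treatments r was 0.23, 0.04 and 0.23 for replicates 1, 2 and 3, against −0.22 to 0.01 for different numbers. What replicates of the same number shared was not tested. With the replicate number as a block, 1 member was higher and 7 were lower with decitabine, 2 and 6 with the combination treatment and 2 and 0 between the treatments, as without it, and all calls numbered 12945, 12673 and 3656 instead of 12759, 12446 and 2908. Of the list counts, 6 moved by more than 1.5 times: with library size alone, transporters lower with decitabine (0), kinases lower between the treatments (2), breakdown enzymes lower with the combination treatment (3) and S phase genes higher with it (5), and without combination treatment replicate 3 the 2 counts given in the report. By the longest transcript, 27 of 30 levels per kilobase moved by more than 1 SD.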
